A study of Ovis aries with 36 samples.

Results

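In the motor cortex of the lamb, 96 of 27054 counted genes were kept as at least 1.5-fold higher in both preterm animals than in every later animal. They were chosen on their motor cortex levels in CPM, a gene's reads for each 1000000 reads counted in its library. A gene was kept where the 2 preterm lambs averaged at least 5 CPM and where the highest of the 7 later lambs lay at or below the lower preterm lamb divided by 1.5. Of 97 genes that met these conditions 1 was left out by name, and another gene named for exclusion had not met them. The choice therefore used all 9 motor cortex libraries, and the motor cortex levels of the 96 members are given below as a description. A test planned there, between the 2 later arms, is void because the choice limited both arms. The hippocampus, basal ganglia and cerebellum libraries were not used in the choice and are where the members were tested. They come from the same lambs, so a trait of the 2 preterm animals in all regions would enter both the choice and these tests. The shares of all genes given beside the members include the members themselves. The other genes in them were not held to the conditions of the choice, such as the minimum of 5 CPM.

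Much of the fetal forebrain is built before birth in the sheep. Genes that serve dividing progenitors, migrating young neurons and growing axons are typically turned down as neurons settle, form synapses and become wrapped in myelin. The cerebellum keeps its own schedule, since its granule neurons go on being produced late in development. The deposited table names genes by Ensembl identifier only, and the reference table used here pairs 0 of these identifiers with a symbol. The members are therefore given by identifier, without their roles, and lists of progenitor, neuron, glia and other marker genes were not tested.

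The study sequenced mRNA from 4 brain regions of 9 lambs, giving 36 libraries. The 2 preterm lambs (H, female, and I, male) were delivered preterm and taken to necropsy immediately. The 2 late preterm lambs (F and G, both male) were delivered at 127 days of gestation and also taken to necropsy immediately. The 5 supported lambs (A to E, 4 of them female and C male) were delivered preterm and cannulated. They were then kept on EXTEND, a system that sustains a preterm lamb outside the womb, until they were close in age to the late preterm arm. The labels give neither the day of preterm delivery nor the exact age of the supported lambs, and they name no strain. Support and added age therefore come together in the supported arm, and each arm holds different animals. These are bulk tissue libraries, so fewer cells of a type and less RNA per cell cannot be told apart in any value below.

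Total counts ran from 8782652 to 18153142 per library. Lambs A, H and I were sequenced less deeply (8782652 to 13020225 counts, 12 libraries) than lambs B to G (13765297 to 18153142 counts, 24 libraries). Both preterm lambs are thus in the shallower group, together with 1 supported lamb. Each library was also matched to the region profiles of the other 8 lambs, in place of marker genes. Every motor cortex library (9) and every cerebellum library (9) was closest to its own region, against 4 of 9 hippocampus and 5 of 9 basal ganglia libraries. The hippocampus libraries of both preterm lambs and the basal ganglia library of preterm lamb I were closest to motor cortex. The cerebellum library of preterm lamb H stood apart, with 3311 of 15229 genes 4-fold or more away from the average cerebellum of the other lambs, against 21 to 169 genes for any other lamb.

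The members covered a wide range of levels in the preterm motor cortex. Their preterm means ran from 5.06 to 1449 CPM with a median of 24.0 CPM. Of the 96 members, 21 were at 100 CPM or more and 15 were under 10 CPM. The smallest count of a member was 24 reads in a preterm motor cortex library and 1 read in a later one, so the lowest levels after the preterm stage rest on few reads. Together the members took 12190 CPM in lamb H and 11950 CPM in lamb I, or 1.21% of the counts of the preterm motor cortex. In the supported arm their summed level was 5161 ± 365 CPM (SD, n = 5) and in the late preterm arm 5670 ± 455 CPM (SD, n = 2).

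The separation that the choice imposed was small for most members and large for a few. The ratio of the lower preterm lamb to the highest later lamb had a median of 1.62 and reached 4.29. It was under 1.6 in 43 members, at least 2 in 22 and at least 3 in 3. The plot of the lower preterm lamb against the highest later lamb shows how many members lie close to the limit. Nearest inside it were ENSOARG00000011150 (282.0 CPM against 187.9 CPM) and ENSOARG00000004675 (63.7 CPM against 42.5 CPM). Nearest outside it were ENSOARG00000014017 (5.77 CPM against 3.85 CPM) and ENSOARG00000008221 (100.1 CPM against 66.9 CPM), which are not members. With CPM scaled by TMM factors, which correct a library's total for differences in composition, 76 genes met the conditions, of which 75 were members.

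**Figure D1:**
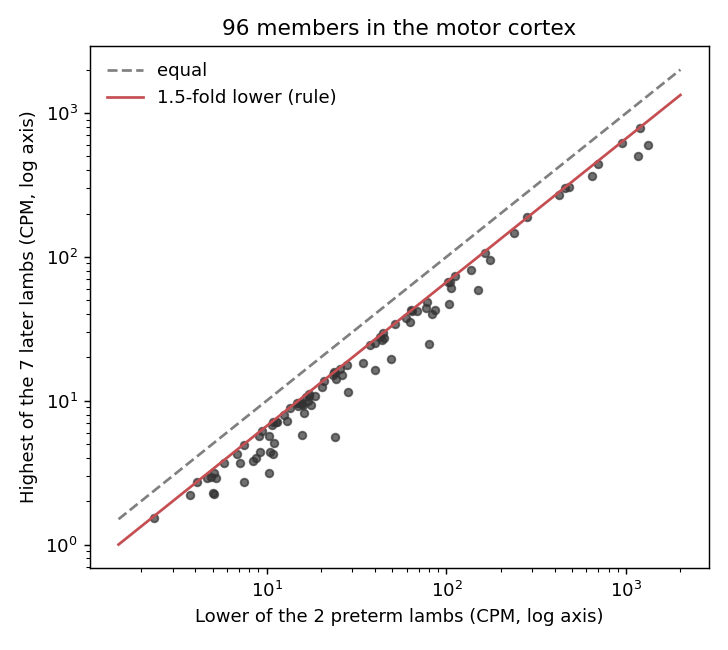
Each point is 1 of the 96 members in the motor cortex, with the lower of the 2 preterm lambs on the x axis and the highest of the 7 later lambs on the y axis, both in CPM on log axes. All points lie on or below the red line of 1.5-fold because the members were chosen that way, and 43 of them lie within a ratio of 1.6.

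In the motor cortex the supported arm averaged 40.1% of the preterm mean in the median member, with a range of 3.70% to 61.2%. The late preterm arm averaged 44.2%, with a range of 2.75% to 63.9%. The supported mean was under 50% of the preterm mean in 78 members and the late preterm mean in 59 members. Fitted with edgeR, the median log2 fold change was -1.26 for supported against preterm lambs and -1.15 for late preterm against preterm lambs. The choice fixes the direction of both.

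The choice held the levels of both later arms under the same limit in the motor cortex, so their comparison there is a description too. The supported mean was below the late preterm mean in 73 of 96 members, and the median log2 ratio of these means was -0.165. All 5 supported lambs lay below both late preterm lambs in 14 members, against 12.8% of the 14942 genes averaging at least 1 CPM in the motor cortex. They lay above both in 2 members, against 9.66% of those genes. The 7 later lambs did not take turns evenly at the extremes. Late preterm lamb F was the highest of the 7 in 27 members and lamb B in 22, whereas lamb D was the lowest in 34 and lamb C in 26.

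The 2 preterm lambs were close to each other in most members. Their levels were a median of 1.18-fold apart, and lamb H was the higher in 53 members. The widest spread was in ENSOARG00000004367, named here after its values were seen, at 30.4 CPM in lamb H and 2.37 CPM in lamb I. The same gene stood at 7.46, 14.9 and 7.74 CPM in the hippocampus, basal ganglia and cerebellum of lamb H. In lamb I it was at 0.668, 0.275 and 0.636 CPM in those regions, within or near the 0 to 0.864 CPM of the later lambs. Outside the motor cortex its high level was thus seen in 1 preterm animal.

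The members with the highest preterm levels were ENSOARG00000003603 and ENSOARG00000011805. ENSOARG00000003603 was at 1579 and 1319 CPM in the motor cortex of preterm lambs H and I. It was at 583, 596, 448, 509 and 603 CPM in supported lambs A to E, and at 596 and 485 CPM in late preterm lambs F and G. The 7 later lambs thus sat in 1 narrow band, with both later arms overlapping. ENSOARG00000011805 was at 1189 and 1567 CPM in the preterm lambs, 613 to 759 CPM in the supported lambs and 781 and 714 CPM in the late preterm lambs. Its later levels were again close together and its 2 preterm levels were the less alike.

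The widest gaps belonged to ENSOARG00000013161 and ENSOARG00000015108, both at modest levels. ENSOARG00000013161 was at 24.1 and 26.3 CPM in the preterm motor cortex, 3.03, 3.66, 2.18, 2.92 and 4.31 CPM in supported lambs A to E, and 4.41 and 5.62 CPM in the late preterm lambs. All 5 supported lambs lay below both late preterm lambs. ENSOARG00000015108 was at 11.3 and 10.3 CPM in the preterm lambs, 0.347, 1.01, 0.654, 1.87 and 3.16 CPM in the supported lambs and 0.315 and 0.334 CPM in the late preterm lambs. Here the order of the later arms was the opposite, since every supported lamb lay above both late preterm lambs.

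**Figure D2:**
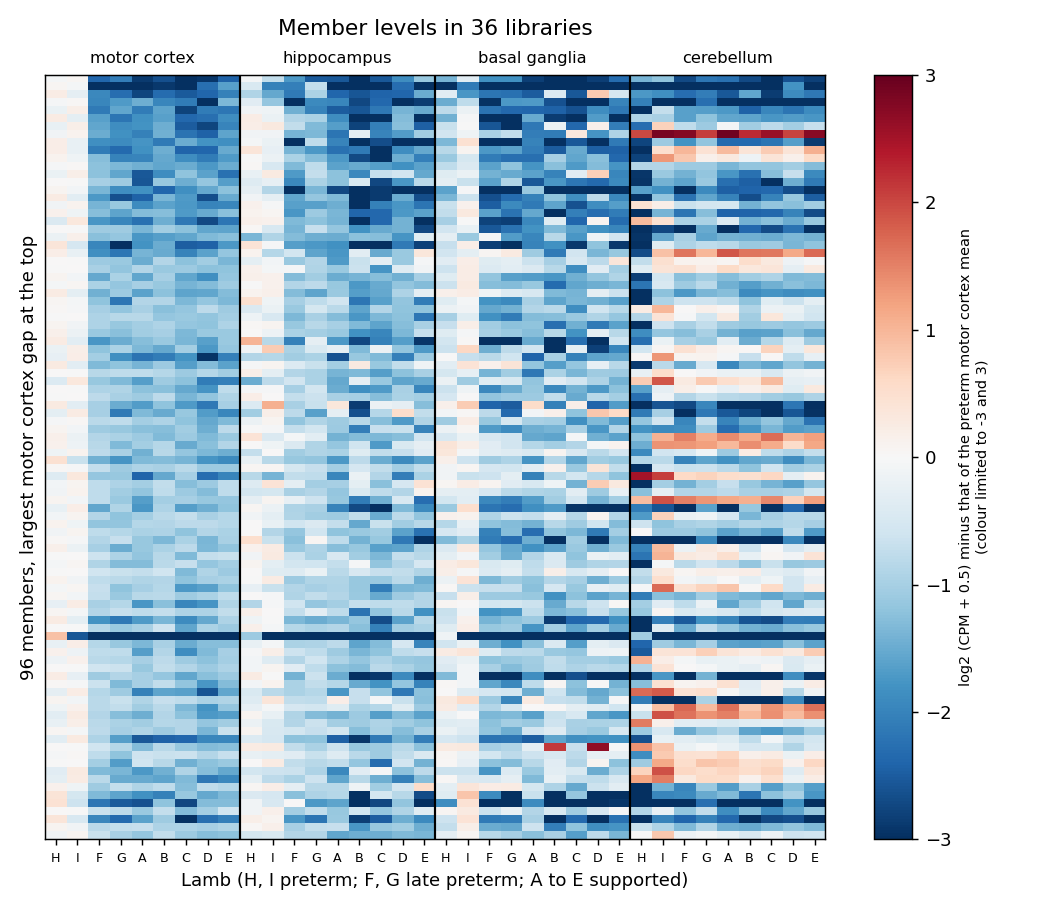
Rows are the 96 members, ordered by their motor cortex gap, and columns are the 36 libraries, with colour giving log2 (CPM + 0.5) minus that of the member's preterm mean in the motor cortex, limited to -3 and 3. The later lambs are mostly blue across motor cortex, hippocampus and basal ganglia, while the cerebellum holds members above (red) and below (blue) the motor cortex level, and the cerebellum column of lamb H differs from its neighbours.

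The median member reached a similar level in the preterm hippocampus libraries as in the motor cortex. Both of these hippocampus libraries, and the basal ganglia library of lamb I, were closest to motor cortex in profile. The part of the place of sampling in these levels was not tested. Compared with the motor cortex of the same lamb, the median member differed by -0.09 (lamb H) and -0.07 (lamb I) on the log2 CPM scale in the hippocampus. In the basal ganglia the median differences were -0.43 and -0.05, and in the cerebellum -1.83 and -0.37. In lamb H the motor cortex held the highest level of 40 members, the hippocampus of 25, the basal ganglia of 15 and the cerebellum of 16. In lamb I these counts were 24, 6, 28 and 38, so the cerebellum led most often there.

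The hippocampus showed most of the members lower in the supported arm. The edgeR quasi-likelihood test, with Benjamini-Hochberg adjustment over all 16370 genes tested, called 29 of 95 tested members lower in supported than in preterm lambs and 0 higher. Over all tested genes, 1.2% were called lower. At an unadjusted p under 0.05, 72 members were lower, against 11.1% of all genes. The fold change was negative in 92 of 95 members, with a median log2 fold change of -1.16 and a range of -3.27 to 0.06, while the median of all tested genes was 0.03. The member left untested was ENSOARG00000004367, which the filter on low counts removed.

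These hippocampus calls rested on both preterm lambs and on how depth was treated. With a term for the 2 depth groups, 0 members were called, as were 0 of the 16370 genes tested. Without lamb H or without lamb I, which leaves 1 preterm lamb, the calls were lost in members and other genes alike. The median log2 fold change of the members stayed at -1.13 (without H), -1.21 (without I) and -1.11 (depth term). The number called was 6 without lamb C (0.141% of all genes), 9 without F (0.225%), 9 without G (0.242%), 10 without B (0.172%), 16 without E (0.295%) and 39 without A (2.4%). Lamb A is the 1 later lamb in the depth group of the preterm lambs, and in the hippocampus it lay below both of them in 93 of 96 members, against 36.2% of the 15130 genes that averaged at least 1 CPM. Since no preterm hippocampus library matched the hippocampus best (the correlation with the hippocampus was 0.23 and 0.29, and with the motor cortex 0.54 and 0.50), the result could not be given without such libraries. The part of depth and of the place of sampling in these differences was not tested.

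The lowest p-values among the hippocampus calls belonged to ENSOARG00000012395 and ENSOARG00000000079. ENSOARG00000012395 was at 159.5 and 140.1 CPM in the hippocampus of preterm lambs H and I, 70.4, 69.6, 57.5, 71.9 and 68.0 CPM in supported lambs A to E, and 83.9 and 88.5 CPM in late preterm lambs F and G. Its log2 fold change for supported against preterm lambs was -1.14 ± 0.12 (SE, edgeR adjusted p = 0.0143). ENSOARG00000000079 was at 180.5 and 199.4 CPM in the preterm lambs, 82.1, 54.96, 63.9, 80.6 and 74.0 CPM in the supported lambs and 98.4 and 104.9 CPM in the late preterm lambs. Its log2 fold change was -1.40 ± 0.15 (SE, edgeR adjusted p = 0.0143). In both genes the 3 arms did not overlap, and the supported lambs were the lowest. The motor cortex levels of ENSOARG00000012395 were 137.2 and 140.8 CPM in the preterm lambs and 53.6 to 81.0 CPM in the later ones, similar to those in the hippocampus.

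Both of the highest members fell in the hippocampus of the supported lambs as well. ENSOARG00000003603 was at 1558 and 1515 CPM in the preterm lambs, 557, 280, 284, 440 and 479 CPM in supported lambs A to E and 435 and 678 CPM in F and G (log2 fold change for supported against preterm -1.90 ± 0.27 SE, edgeR adjusted p = 0.0256). ENSOARG00000011805 was at 1215 and 998 CPM in the preterm lambs, 594 to 727 CPM in the supported lambs and 744 and 879 CPM in the late preterm lambs (-0.72 ± 0.12 SE, adjusted p = 0.0342). The 7 later lambs lay below both preterm lambs in each case. Of the 2 members with the widest motor cortex gap, ENSOARG00000013161 stood at -1.80 ± 0.54 on the log2 scale (SE, edgeR adjusted p = 0.0976) and ENSOARG00000015108 by -3.27 ± 1.16 (SE, adjusted p = 0.139), neither past the threshold. ENSOARG00000015108 was at 7.78 and 2.29 CPM in the preterm hippocampus and at 2.22 and 6.43 CPM in the late preterm hippocampus, so these 2 arms overlapped, whereas the supported lambs were at 0 to 1.83 CPM. The 2 members nearest inside the limit passed the test in the hippocampus, ENSOARG00000011150 at -1.27 ± 0.22 (SE, edgeR adjusted p = 0.0384) and ENSOARG00000004675 at -1.97 ± 0.39 (SE, adjusted p = 0.0445).

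Between late preterm and preterm lambs, 0 of 95 members were called in the hippocampus with edgeR, as was 0% of all genes. At an unadjusted p under 0.05, 36 members were lower, against 3.6% of all genes, and DESeq2 called 11 (0.406% of all genes). The fold change was negative in 93 of 95 members and its median on the log2 scale was -0.84. This comparison shares its preterm libraries with the one above. The difference between the supported and late preterm arms in the hippocampus had a median of -0.31 on the log2 scale.

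**Figure D3:**
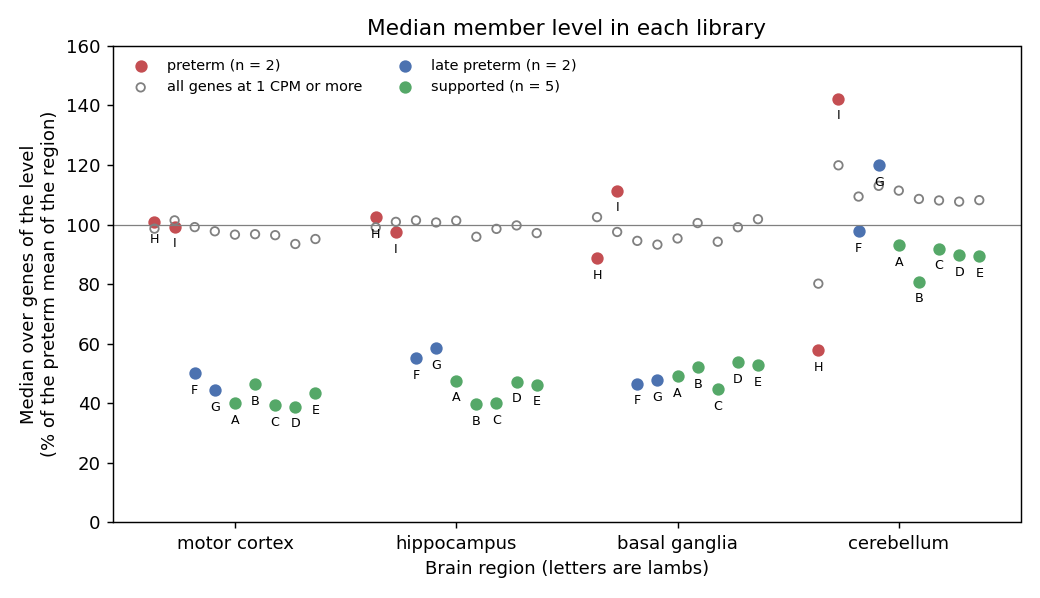
For each library (letters are lambs) the coloured point is the median over the 96 members of the level as a percent of the preterm mean of the region, and the grey ring is the same over all genes averaging at least 1 CPM there. Later lambs sit between 38.8% and 58.6% in the motor cortex, hippocampus and basal ganglia, where the grey rings lie between 93.3% and 102.5%, and between 80.8% and 119.9% in the cerebellum, where preterm lambs H and I lie at 57.7% and 142.3%. The grey rings of the cerebellum lie at 80.15% (H), 119.9% (I) and 107.7% to 113.0% (later lambs).

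In the basal ganglia most members were also at lower levels in the later arms, but no member passed the adjusted threshold. With edgeR, 0 of 96 members were called for supported against preterm lambs, as was 0% of the 16679 genes tested, and the smallest adjusted p of a member was 0.185. At an unadjusted p under 0.05, 56 members were lower, against 5.61% of all genes, and DESeq2 called 36 (1.41% of all genes). The fold change was negative in 93 of 96 members and its median on the log2 scale was -0.90, against 0.04 over all genes. For late preterm against preterm lambs 0 members were called, against 0.006% of all genes (1 gene), and the smallest adjusted p of a member was 0.0599. Here 53 members were lower at an unadjusted p under 0.05, against 7.95% of all genes, DESeq2 called 28 (2.68% of all genes), and the median log2 fold change was -1.07. With only the 5 libraries that matched the basal ganglia best, which leaves lamb H as the preterm lamb and drops the late preterm arm, 0 members were called for supported against preterm lambs and the median was -0.74.

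The preterm lambs differed more from each other in the basal ganglia than in the hippocampus. The members' summed level was 8228 CPM in lamb H and 11880 CPM in lamb I, against 4806 ± 147 CPM (SD, n = 5) with support and 4560 ± 35.4 CPM (SD, n = 2) in late preterm lambs. ENSOARG00000003603 shows this, at 871 and 1785 CPM in preterm lambs H and I, 503, 175, 351, 299 and 339 CPM in supported lambs A to E and 476 and 314 CPM in the late preterm lambs. Its log2 fold change for supported against preterm lambs was -1.98, with an edgeR adjusted p of 0.194. Every later lamb still lay below both preterm lambs. In ENSOARG00000015108 both late preterm lambs were at 0 counts in the basal ganglia, against 0.517 and 2.10 CPM in the preterm lambs. With a floor of 3 counts over the arm the gene was at least 13.4-fold lower there, which covers counting error only.

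Some members stood higher in the supported basal ganglia than the rest of the set. ENSOARG00000005359, named after its values were seen, had the highest fold change for supported against preterm lambs (log2 1.12 ± 0.92 SE, edgeR adjusted p = 0.635). Its level was 93.6 and 135.1 CPM in supported lambs B and D, against 12.9 to 20.6 CPM in lambs A, C and E and 25.7 and 25.8 CPM in the preterm lambs. The other 3 regions of lambs B and D held 8.26 to 14.8 CPM. The high levels were therefore seen in 1 region of 2 lambs.

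**Figure D4:**
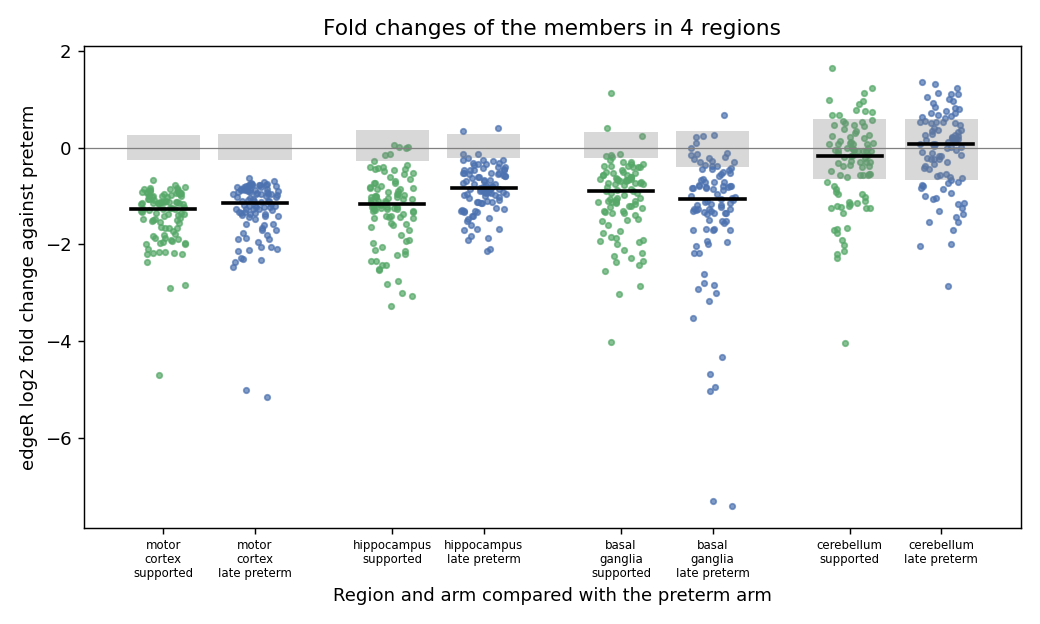
Points are the members' edgeR log2 fold changes against the preterm arm in each region, green for the supported and blue for the late preterm arm, with a black bar at their median and a grey box over the middle 50% of all tested genes. The motor cortex was used to choose the members; in the hippocampus and basal ganglia the medians lie between -1.16 and -0.84, and in the cerebellum at -0.18 and 0.07, and the 2 lowest points in the basal ganglia belong to ENSOARG00000004367 and ENSOARG00000015108, which had few or no reads in the late preterm lambs.

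Summing the hippocampus and basal ganglia counts of each lamb gave 1 value per animal from libraries that the choice had not used. In these sums edgeR called 27 of 96 members lower in supported than in preterm lambs and 0 higher, against 1.01% of the 17550 genes tested. At an unadjusted p under 0.05, 76 members were lower, against 10.6% of all genes. The fold change was negative in 94 members and its median on the log2 scale was -1.04. Of these 27 members, 21 were also among the 29 called in the hippocampus, whose libraries are part of the sum. For late preterm against preterm lambs 0 members were called, as was 0% of all genes, with 57 members lower at an unadjusted p under 0.05 against 6.48% of all genes, a median log2 fold change of -0.94 and 30 calls by DESeq2 (1.47% of all genes). With the depth term 0 members were called, as were 0 of the 17550 genes tested. The 27 calls became 1 with sex as a covariate (0.0114% of all genes) and 12 without E (0.156%). Most were lost without F or without G, which leaves 1 late preterm lamb. Without lamb H or without lamb I, which leaves 1 preterm lamb, the calls were lost in members and other genes alike.

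The lowest p-values in the sums belonged to ENSOARG00000003216 and ENSOARG00000007549. ENSOARG00000003216 was at 42.2 and 27.5 CPM in the hippocampus of the preterm lambs, 6.604, 7.16, 3.45, 8.71 and 10.9 CPM in supported lambs A to E and 12.2 and 9.58 CPM in the late preterm lambs. In the basal ganglia it was at 18.3 and 35.04 CPM, then 7.45, 5.41, 11.2, 5.56 and 5.73 CPM, then 9.54 and 10.4 CPM in the same order. All later lambs lay below both preterm lambs in each region, and the summed log2 fold change for supported against preterm lambs was -2.09 ± 0.13 (SE, edgeR adjusted p = 0.0014). ENSOARG00000007549, a gene of low level, was at 9.92 and 8.88 CPM in the preterm hippocampus and 0.615 to 2.95 CPM in the later lambs. Its summed log2 fold change was -2.16 ± 0.24 (SE, edgeR adjusted p = 0.0213).

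The members were also counted by whether the arms overlapped. All 7 later lambs lay below both preterm lambs in 67 of 96 members in the hippocampus, against 12.3% of the genes averaging at least 1 CPM there. In the basal ganglia this held for 50 members, against 7.66% of genes, and in the cerebellum for 16, against 13.4%. The hippocampus and basal ganglia shared 43 such members, 64.2% of the hippocampus list and 86.0% of the basal ganglia list, where 4.25% of genes separated in both regions. In 22 members the later lambs separated in neither region, against 84.1% of genes. In 8 they separated in all 3 regions outside the motor cortex, against 1.05% of genes. The shallowly sequenced supported lamb A lay below both preterm lambs in 88 members in the basal ganglia, against 39.9% of genes, and in 31 members in the cerebellum, against 28%.

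The members with the wider motor cortex gap had the larger median differences in the hippocampus and basal ganglia. The gap comes from the same values and lambs as the choice, so this is a description only. The 22 members with a gap of at least 2 had a median log2 fold change for supported against preterm lambs of -2.17 in the hippocampus and -1.73 in the basal ganglia. For the 74 with a smaller gap these medians were -1.05 and -0.80. In the hippocampus 7 of the 22 were called lower and 22 of the 73 tested with a smaller gap. Of the 21 members at 100 CPM or more in the preterm motor cortex, 12 were called lower in the hippocampus, against 17 of the 74 tested below that level. These shares were not compared by a test.

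In the cerebellum fewer members had a negative fold change in the supported arm than in the hippocampus or basal ganglia. For supported against preterm lambs edgeR called 17 of 95 members lower and 0 higher, but 6.92% of the 16304 genes tested were also called lower. At an unadjusted p under 0.05, 26 members were lower, against 21.6% of all genes. The fold change was negative in 60 of 95 members and its median on the log2 scale was -0.18, against 0.02 over all genes. For late preterm against preterm lambs 0 members were called, as was 0% of all genes, with 16 members lower at an unadjusted p under 0.05 against 15.3%, a median of 0.07 and 9 calls by DESeq2 (6.25% of all genes). The summed level of the members was 9625 and 10270 CPM in the preterm lambs, 7407 ± 426 CPM (SD, n = 5) in the supported arm and 8232 ± 107 CPM (SD, n = 2) in the late preterm arm.

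The cerebellum library of preterm lamb H, which stood apart, entered each of these values. Its median member was at 57.7% of the preterm mean of the region and that of lamb I at 142.3%, against 80.8% to 93.2% in the supported and 97.8% and 119.9% in the late preterm lambs. The median over all genes averaging at least 1 CPM there also differed, at 80.15% in lamb H and 119.9% in lamb I. In the later lambs it was 107.7% to 113.0%. Without the 5 highest members, the sum was 2435 CPM in lamb H, 6022 CPM in lamb I and 3947 to 4876 CPM in the later lambs. Without lamb H, edgeR called 11 of 96 members lower, against 1.92% of all genes, and the median log2 fold change for supported against preterm lambs was -0.54 with 75 members negative. Only 7 of the 17 calls were among these 11. With D, G and H all left out of the cerebellum fit, lamb I was the only preterm lamb. The median log2 fold change for supported against preterm lambs was then -0.50, with 73 of 91 members negative, against 0.02 over all genes. In that fit 22 of 91 members were called lower, against 2.78% of all genes called lower. Without lamb I, which leaves lamb H as the only preterm lamb, 22 were called lower and 32 higher, against 28.3% and 32.2% of all genes, and the median was 0.34. Adding the depth term ended all 17 calls, with 0 of the 16304 genes tested called. Leaving out A (0 of 16256 genes called), B, C or E singly also ended them. Without D 2 members were called (0.235% of all genes). Few were left without F or without G, which leaves 1 late preterm lamb. Measured against lamb I alone, all 7 later lambs were lower in 53 members, against 29.5% of genes, and for 27 of these both other regions also separated, against 2.31% of genes.

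ENSOARG00000011059 and ENSOARG00000005652 had the lowest p-values among the cerebellum calls. ENSOARG00000011059 was at 58.4 and 65.0 CPM in the cerebellum of preterm lambs H and I, 17.3, 14.1, 19.7, 9.69 and 16.4 CPM in supported lambs A to E and 24.2 and 25.4 CPM in the late preterm lambs. The 3 arms did not overlap, and the log2 fold change for supported against preterm lambs was -2.197 ± 0.255 (SE, edgeR adjusted p = 0.0203). In the hippocampus the same gene was at 12.8 and 9.93 CPM in the preterm lambs and 3.61 to 10.7 CPM in the supported lambs, which overlapped (log2 fold change -0.72 ± 0.37 SE, adjusted p = 0.270). ENSOARG00000005652 was at 37.9 and 28.0 CPM in the preterm cerebellum, 9.24, 8.995, 9.97, 5.16 and 6.76 CPM in the supported lambs and 9.71 and 10.4 CPM in the late preterm lambs (-2.29 ± 0.31 SE, adjusted p = 0.0203). In the motor cortex that gene was at 4.68 and 7.88 CPM in the preterm lambs and 0.780 to 2.91 CPM in the later lambs. In the hippocampus it was at 3.34 and 2.10 CPM in the preterm lambs and 1.11 to 5.37 CPM in the supported lambs, which gave 0.06 ± 0.61 on the log2 scale (SE, edgeR adjusted p = 0.963). Its highest levels were thus in the preterm cerebellum.

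Among the 8 members in which the later lambs lay below both preterm lambs in all regions were 3 of those named above. ENSOARG00000007549 was at 12.5 and 10.3 CPM in the preterm cerebellum and 3.09 to 6.13 CPM in the later lambs (log2 fold change for supported against preterm -1.70 ± 0.33 SE, edgeR adjusted p = 0.0304). ENSOARG00000013161 was at 9.34 and 10.7 CPM in the preterm cerebellum and 2.58 to 5.18 CPM in the later lambs (-1.69 ± 0.31 SE, adjusted p = 0.0291). Both are genes of modest level in each region. ENSOARG00000011805 was at 4057 CPM in the cerebellum of lamb H, 1540 CPM in that of lamb I and 972 to 1110 CPM in the later lambs (-1.76 ± 0.38 SE, adjusted p = 0.0367), so much of its difference came from the library that stood apart.

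Other members kept or exceeded their preterm level in the later cerebellum. ENSOARG00000003216, lower in every later hippocampus and basal ganglia, was at 1.252 CPM in the cerebellum of lamb H and 47.0 CPM in that of lamb I. It was at 63.9, 43.2, 56.0, 43.2 and 69.3 CPM in supported lambs A to E and 66.4 and 44.4 CPM in the late preterm lambs. The later lambs lay around lamb I and far above lamb H. ENSOARG00000016115, named after its values were seen for the highest cerebellum fold change (log2 1.65 ± 0.67 SE, edgeR adjusted p = 0.124), was at 2.51 CPM in lamb H, 35.3 CPM in lamb I and 38.5 to 70.3 CPM in the later lambs. Its motor cortex levels were 21.8 and 16.1 CPM in the preterm lambs and 3.81 to 8.17 CPM in the later lambs. For supported against preterm lambs 35 of 95 members had a positive fold change in the cerebellum, or 21 of 96 without lamb H, against 3 of 95 in the hippocampus and 3 of 96 in the basal ganglia.

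**Figure D5:**
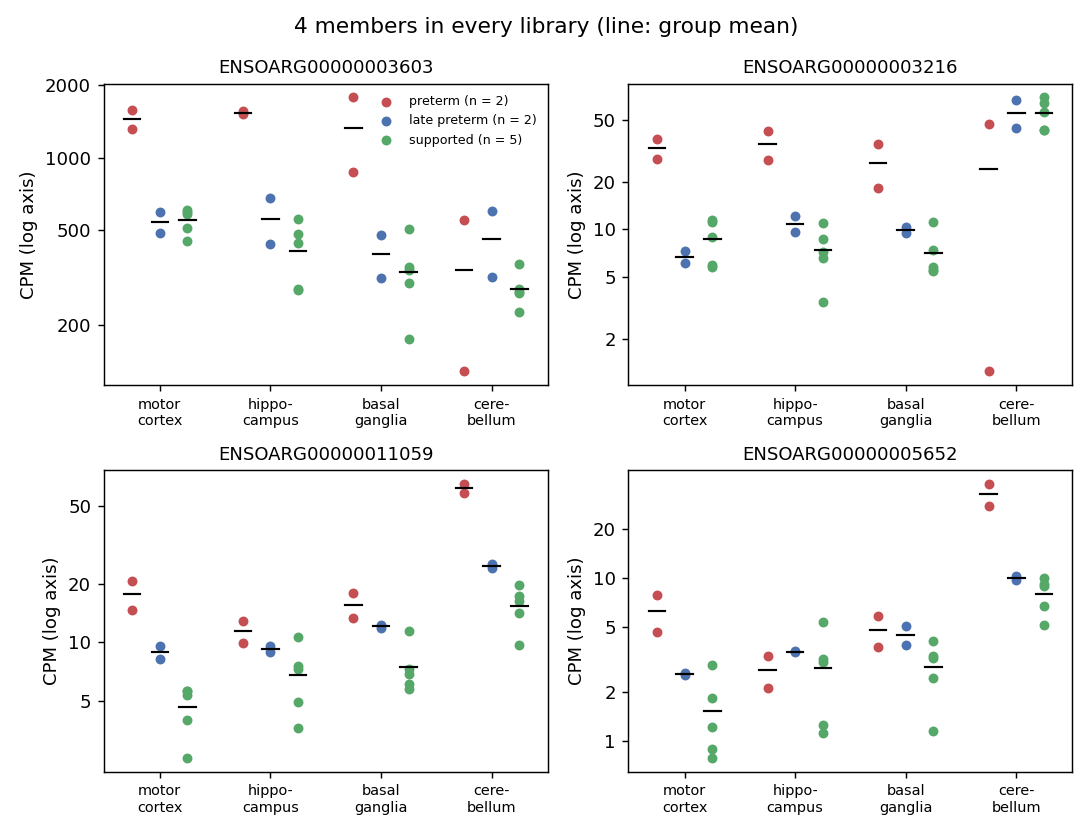
CPM on log axes of 4 members in every library, by region and arm, with a line at each arm's mean. ENSOARG00000003603 and ENSOARG00000003216 lie below both preterm lambs in every later library of motor cortex, hippocampus and basal ganglia, while in the cerebellum the arms overlap and lamb H is the low preterm point, and ENSOARG00000011059 and ENSOARG00000005652 have their highest levels in the preterm cerebellum.

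Whether the change between arms differed between regions was tested over the libraries of both regions with the lamb as a block. For supported against preterm lambs, the cerebellum change minus the hippocampus change was positive in 78 of 96 members, with a median of 1.17 on the log2 scale, which was 0.78 without lamb H. With edgeR 2 members passed an adjusted p under 0.05, against 1.87% of the 16978 genes tested, so the share of members called was close to the background. At an unadjusted p under 0.05 there were 51 of the 96 members, against 5476 of the 16978 genes. The 2 members that passed are named next. They were ENSOARG00000003086 (difference 2.46 ± 0.52 SE, adjusted p = 0.0498) and ENSOARG00000018884 (1.15 ± 0.24 SE, adjusted p = 0.0473), named because they were the only calls. ENSOARG00000018884 was at 739.4 and 710.6 CPM in the preterm hippocampus and 254.8 to 436.2 CPM in the later one, but at 170.7 and 307.5 CPM in the preterm cerebellum and 249.3 to 356.6 CPM in the later one. Without lamb H 0 members passed, and the differences of these 2 were 2.03 (adjusted p = 0.250) and 0.97 (adjusted p = 0.155). Between late preterm and preterm lambs 0 members passed in cerebellum against hippocampus (0.165% of all genes passed). Of the members, 29 had an unadjusted p under 0.05, against 17% of all genes. Against the basal ganglia 0 members passed for supported against preterm lambs (0% of all genes) and 0 for late preterm against preterm lambs (0.146% of all genes). The unadjusted p was under 0.05 in 38 members against 27.3% of all genes for the former and in 47 members against 22.7% for the latter.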

How the data were processed

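The authors deposited raw read counts per gene for 36 libraries. Per the labels' protocols, RNA came from flash-frozen tissue and libraries from enriched, fragmented mRNA. Reads were trimmed with fastp, checked with SeqKit and counted with STAR against the Ensembl release 107 sheep annotation, from the unstranded column, per the labels' protocols and the submitters' processing notes. Their versions and the assembly name, not given in the sources used here, were not assumed. The counting ignored strand, so reads of overlapping or antisense genes mix.

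CPM used the column totals, and log2 CPM and percents of the preterm mean a pseudocount of 0.5. Each region was tested with edgeR 4.0.16 in R 4.3.3 over 9 libraries, fitted by arm (TMM factors, filterByExpr, quasi-likelihood F-test, Benjamini-Hochberg adjustment over all tested genes, threshold 0.05). All 3 arms shared the estimate of spread because 2 of them hold 2 lambs. The SE is the fold change divided by the square root of F. DESeq2 1.42.0 was an alternative, with others for scaling, filter, depth group, sex and each lamb left out. The scripts were tested on simulated data. Lambs are separate animals, and no library was a copy of another (48 pairs compared).

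To match libraries to regions, the other 8 lambs gave 1 mean log2 profile per region. The average of these 4 was subtracted from each profile and from the library before correlating them. The members, lists and tests were chosen with earlier results of these data known. Genes were named by rank: the 2 members with the highest preterm level, the 2 with the widest gap, the 2 on each side of the limit, and the 2 with the lowest p among calls in each region or sum. Others were named after their values were seen, as stated there. The 35057 genes of the reference table (assembly ARS-UI_Ramb_v3.0) gave no symbol for any member, so the planned lists, sequences and coordinates were not used here.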

Additional observations from a re-analysis of the deposited data

Results flagged for a closer look

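In groups of 5 supported lambs, 52 sets of values of the named members were examined for a single lamb far from the other 4, and 4 had one; chance gives about 1 in 20. ENSOARG00000012395 in the hippocampus was at 57.5 CPM in lamb C, against 68.0 to 71.9 CPM in the others. ENSOARG00000011059 in the basal ganglia was at 11.5 CPM in lamb B, against 5.73 to 7.30 CPM. ENSOARG00000015108 was at 0.745 CPM in the basal ganglia of lamb C, against 0 to 0.0582 CPM, and at 2.75 CPM in the cerebellum of lamb D, against 0 to 0.287 CPM. The basal ganglia value rests on 12 reads and the cerebellum value on 49 reads.

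For supported against preterm lambs, the cerebellum change differed from the hippocampus change in 2 of 96 members, against 1.87% of the 16978 genes tested. The share of members was thus close to the background. The test was edgeR's test of the difference with the lamb as a block. The differences on the log2 scale were 2.46 in ENSOARG00000003086 and 1.15 in ENSOARG00000018884. ENSOARG00000003086 was at 16.8 and 17.0 CPM in the preterm hippocampus and 4.12 to 11.7 CPM in the later one, and at 5.24 and 14.3 CPM in the preterm cerebellum and 13.4 to 21.3 CPM in the later one. Neither difference passed without lamb H.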

How the results depend on the processing

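Under DESeq2 the members called lower for supported against preterm lambs were 57 in the hippocampus (5.09% of all genes), 36 in the basal ganglia (1.41%), 55 in the sum of both regions (5.29%) and 24 in the cerebellum (15.7%), where 1 was also called higher (8.23%). For late preterm against preterm lambs DESeq2 called 11, 28, 30 (sum) and 9 (cerebellum). The planned test between the later arms in the motor cortex (0 calls with edgeR, 1 with DESeq2) is void, since the choice of members limited both arms. A depth group term left 0 calls in the hippocampus, 0 in the cerebellum and 0 in the sum, over members and over all genes tested. Sex as a covariate left 1 in the sum, where 2 of 17550 genes were called lower. With each lamb left out, calls for supported against preterm lambs ranged from 0 to 39 (hippocampus), 0 to 22 (cerebellum) and 0 to 33 (sum), and for late preterm against preterm lambs from 0 to 1 (basal ganglia, 1 without lamb A) and 0 to 16 (cerebellum, 16 without lamb I, with 35 higher, against 25.8% and 30.2% of all genes). The 39 and the 33 came without lamb A, where 393 of 16347 genes (hippocampus) and 320 of 17462 genes (sum) were called lower. The 22 in the cerebellum came without lamb I, which leaves lamb H as the only preterm lamb. In that fit a larger share of all genes than of members was called lower, and the members' median log2 fold change was 0.34. An arm left with 1 lamb was assumed to vary like the others. For late preterm against preterm lambs, no filter on low counts gave 1 call in the basal ganglia. Omitting D, G and H from the cerebellum fit gave a median log2 fold change of -0.43 for that comparison. A looser limit on the fold gave 351 members and a fold of 2 gave 22, and leaving out a lamb gave 96 to 320 (320 without H, 304 without I, 154 without F). The 2 differences between cerebellum and hippocampus became 0 without the cerebellum library of lamb H, an alternative chosen after seeing the data. ENSOARG00000005652 in the hippocampus reversed to -1.14 with the depth term and ranged from -0.337 (without B) to 0.456 (without H) with a lamb left out, and was -0.261 without I. The cause of these changes was not tested. DESeq2 size factors in the edgeR fit left each count within 1.5 times. The arms could not be compared in pairs because they hold different lambs. Depth limits members near 1 CPM or below.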
